A study of Mus musculus with 10 samples.

Results

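Kainate receptors are glutamate-gated ion channels, and the genes described here are those of their 5 subunits, Grik1 to Grik5, and of their auxiliary proteins, Neto1 and Neto2. All 7 genes were found by symbol among 19936 genes measured in the series, each through 1 transcript cluster, the array's unit of summary. Hippocampal RNA came from 10 male mice aged 16 weeks on an F1 hybrid B6C3B background, 5 carrying the Ts65Dn chromosome (genotype Mut) and 5 control littermates (genotype WT), each on its own Mouse Gene 1.0 ST array from Affymetrix. The Ts65Dn mouse, a model of Down syndrome, has a small extra chromosome with part of mouse chromosome 16 (Mmu16) and the part of chromosome 17 next to its centromere, so it carries 3 copies of Grik1 and 2 of the other 6 genes. Its segment of chromosome 17 has no counterpart on human chromosome 21, and genes on it were also in 3 copies. Right and left hippocampi of a mouse were pooled as 1 RNA, so the array reports the whole structure and not its subfields.

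Kainate receptors are tetramers. The products of Grik1, Grik2 and Grik3 (GluK1 to GluK3) can form channels on their own, whereas those of Grik4 and Grik5 (GluK4 and GluK5) bind the agonist with higher affinity and need one of the first group as partner. Neto1 and Neto2 are membrane proteins with CUB domains that associate with the channel and slow its kinetics. In the hippocampus kainate receptors are known for slow currents at mossy fibre synapses on CA3 pyramidal cells and for control of transmitter release, and Grik1 is known for its expression in inhibitory interneurons.

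Values are log2 signals, so a difference of 1 is a doubling of the signal. Signals of different genes come from different probes, so their order is not an order of expression levels. Median signals of the 10 arrays lay between 7.38 and 7.41, and no 2 arrays held identical values (0 pairs). Marker genes of the hippocampal fields spanned a wide range of mean signals, from 6.39 (Tdo2) to 11.28 (Calb1) over 8 genes of dentate granule cells, from 9.33 (Fibcd1) to 10.91 (Mpped1) over 5 genes of CA1 and from 7.52 (Cdh24) to 11.13 (Spock1) over 7 genes of CA3. The choroid plexus list, 8 measured genes of a tissue that borders the hippocampus, varied widely between mice, from 7.07 to 10.01 in Ts65Dn and from 7.11 to 9.79 in controls.

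The comparison of Ts65Dn with control mice asked whether the copy number of Grik1 was seen in its expression and whether the other genes of the family differed. Grik1 was higher in Ts65Dn hippocampi and was the only one of the 7 genes past the threshold of the limma fit, an adjusted p under 0.05 over all 23410 transcript clusters tested. No member was lower by that threshold. Over all genes 0.276% were called higher and 0.00502% lower, or 0.281% in either direction. At an unadjusted p under 0.05, where 3.33% of all genes were, Grik3 was the only further member, at a lower value. The rank method described under Grik3 called 1 member higher and 1 lower, where 2.9% of all genes were called higher. Of the 6 genes in 2 copies, 3 had positive and 3 negative log2 differences, with a median of -0.00338.

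Grik1 (gene 14805) lies on chromosome 16 from 87895901 to 88290863 (GRCm38). Its signal in the 5 Ts65Dn mice was 7.23, 7.19, 7.12, 7.23 and 7.16 for replicates 1 to 5. In the 5 controls it was 6.79, 6.89, 6.90, 6.83 and 6.93. Every Ts65Dn mouse was above every control, with a gap of 0.20 between the lowest Ts65Dn and the highest control value. Such a separation upwards was found for 0.532% of all genes and downwards for 0.346%, and no other member showed either. The group means were 7.19 ± 0.0461 (SD) and 6.87 ± 0.0567, a difference of 0.32 ± 0.04 (log2, SE; adjusted p = 0.00347, limma, n = 5 per group). This is a 1.25-fold higher signal with a 95% interval from 1.18 to 1.32, which ends below 1.5, the ratio of gene copies. The 42 genes of the Mmu16 segment called higher had a median log2 difference of 0.42, also below 0.58, the log2 of that ratio. How closely the fold on the array follows the ratio of RNA was not tested. The mean signal of Grik1 over the 10 arrays was 7.03, under the median of 7.41 over all genes. In bulk tissue, more cells that express Grik1 and more Grik1 RNA per cell cannot be told apart.

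**Figure D1:**
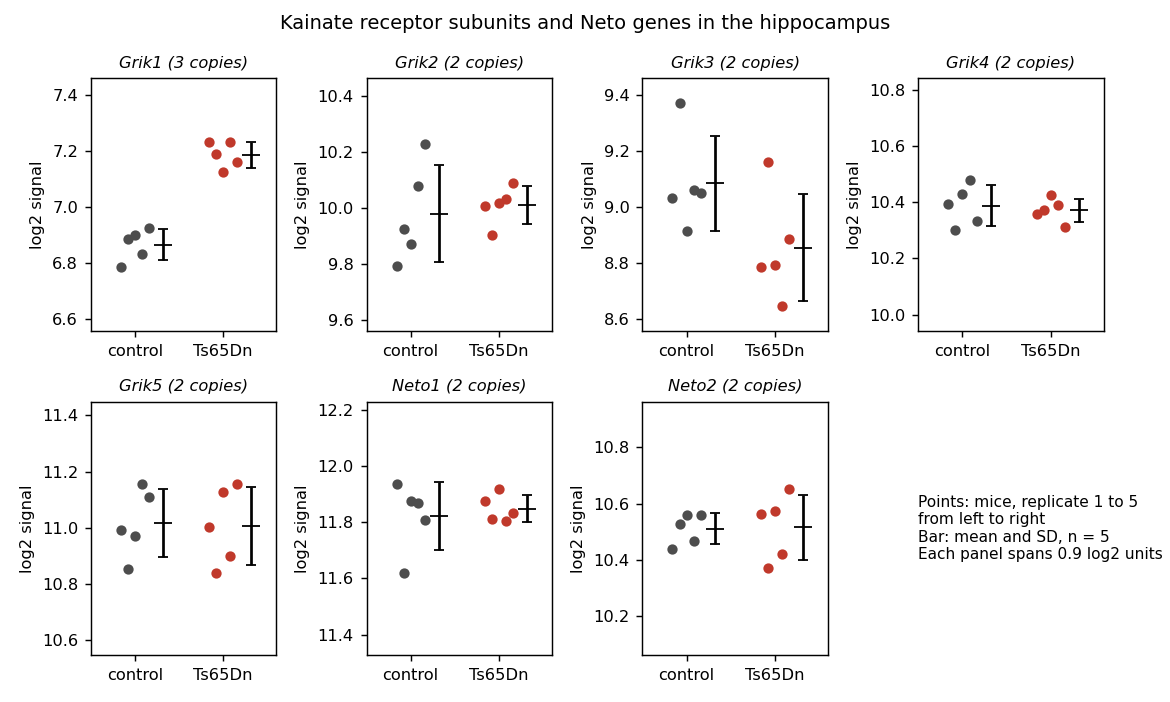
Log2 signal of each kainate receptor subunit and Neto gene in 5 control (grey) and 5 Ts65Dn (red) mice; each point is a mouse, bars show mean and SD, and each panel spans the same number of log2 units. The Ts65Dn mice lie above all controls for Grik1, at 7.12 or more against 6.93 or less, while the groups overlap for the other 6 genes.

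Grik2 and Grik3 encode the other subunits that can form channels alone. Grik2, the subunit gene known for mossy fibre currents, lies on chromosome 10 from 49093680 to 49790161. Its signal was 10.01, 9.90, 10.02, 10.03 and 10.09 in Ts65Dn and 9.79, 9.93, 9.87, 10.08 and 10.23 in controls. The controls spanned 0.43 and held both the lowest and the highest value, so the Ts65Dn mice lay within their range. The log2 difference was 0.03 ± 0.08 (SE), with an interval of the fold from 0.911 to 1.15.

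The arrays also held a transcript cluster annotated as C130030K03Rik, a name that RefSeq gives as a synonym of Grik2 while the platform annotation holds it as a gene of its own. It is not counted among the 7 genes. The 5 Ts65Dn mice had a mean signal of 8.12 ± 0.0754 (SD) against 8.21 ± 0.160 in the controls, for a log2 difference of -0.09 ± 0.07 (SE; adjusted p = 1.00, limma, n = 5 per group). The sign was opposite to that of the Grik2 cluster, and neither passed the threshold.

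Grik3 (chromosome 4, 125490259 to 125714173) had the lowest log2 difference of the 7 genes. Its signal was 8.79, 9.16, 8.80, 8.65 and 8.89 in Ts65Dn and 9.03, 9.37, 8.91, 9.06 and 9.05 in controls. Replicate 2 was the highest of its group in both genotypes, and the other 4 Ts65Dn mice were below every control. The mean was 8.86 ± 0.192 (SD) in Ts65Dn and 9.08 ± 0.169 in controls. The log2 difference was -0.23 ± 0.10 (SE; unadjusted p = 0.0424, adjusted p = 1.00, limma, n = 5 per group), so Grik3 missed the threshold over all genes, of which 1.57% were lower at an unadjusted p under 0.05. The interval of the fold ran from 0.732 to 0.994. An exact permutation test of the Grik3 difference gave an unadjusted p of 0.0794 (n = 5 per group). A rank method of the kind the study used called Grik3 lower, together with 2.66% of all genes.

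The striatum list (4 measured genes) also had its highest mean in replicate 2 of each genotype, at 7.93 among Ts65Dn mice and 8.03 among controls. For the other mice it lay between 7.62 and 7.74 in Ts65Dn and between 7.67 and 7.86 in controls. Deviations of Grik3 and of this list from the genotype means had r = 0.82 (exact permutation p = 0.0154, and 0.293 adjusted over 70 relations of members with marker lists, n = 10). Spearman's rho was 0.56 (exact permutation p = 0.0911, and 0.479 adjusted, n = 10). Without the 2 mice farthest from the median of the list r was 0.14, so the relation rests on those mice. The permutation treated mice of the same number in the 2 genotypes as unlinked, so it made no allowance for a shift they share. The thalamus list had 6 of 6 genes at negative differences, where 10447 of all 19936 genes were negative. Other marker lists were one-sided too, with 6 of 6 oligodendrocyte genes negative and 8 of 8 choroid plexus genes positive. The thalamus mean was 8.02 to 8.27 in Ts65Dn and 8.05 to 8.66 in controls. Control replicates 2 and 5 were at 8.38 and 8.66, and the other controls at 8.05 to 8.12, within the Ts65Dn range. With the thalamus mean as a covariate, an alternative chosen after seeing the data, the Grik3 difference was -0.17, and with the choroid plexus mean it was -0.24, against -0.23 without a covariate. The striatum mean was not tried as a covariate, and its part in the Grik3 difference was not tested. Without Ts65Dn replicate 2 the Grik3 difference was -0.31 and without control replicate 2 it was -0.16, and Grik3 missed the threshold in both limma fits.

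Grik4 and Grik5 encode the high-affinity subunits. Grik4 (chromosome 9, 42518182 to 42945000), which is known for expression in CA3, had the smallest range over all mice of the 7 genes, 0.18 on the log2 scale. It ranged from 10.31 to 10.43 in Ts65Dn and from 10.30 to 10.48 in controls, with a log2 difference of -0.02 ± 0.04 (SE). The interval of the Grik4 fold, 0.928 to 1.05, was narrow around 1. Grik5 (chromosome 7, 25009849 to 25075694) ranged from 10.84 to 11.16 in Ts65Dn and from 10.85 to 11.16 in controls. The ranges coincided almost wholly, and the log2 difference was -0.01 ± 0.07.

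Neto1 and Neto2, the auxiliary genes, lie on chromosome 18 (86394815 to 86506721) and on chromosome 8 (85636718 to 85700952). Neto1 ranged from 11.80 to 11.92 in Ts65Dn and from 11.62 to 11.94 in controls, where replicate 2 was the lowest. Its log2 difference was 0.03 ± 0.06 (SE). Neto2 ranged from 10.37 to 10.65 in Ts65Dn and from 10.44 to 10.56 in controls, with a log2 difference of 0.00 ± 0.06. The intervals of the fold, 0.935 to 1.11 for Neto1 and 0.922 to 1.09 for Neto2, held 1 and lay below the fold of Grik1.

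**Figure D2:**
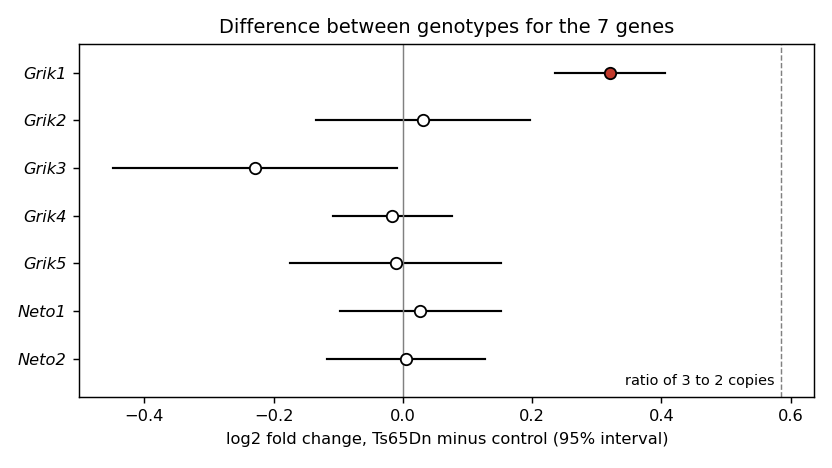
Log2 fold change (Ts65Dn minus control) with its 95% interval for the 7 genes; the red point passed adjusted p 0.05 in the limma fit and the dashed line marks the ratio of 3 to 2 copies. The interval of Grik1, from 0.23 to 0.41, lies between 0 and the dashed line at 0.58, and that of Grik3 ends at -0.01.

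Whether the shift of Grik1 differed from that of each other member was then tested per mouse. The difference between the Grik1 signal and that of the other gene was compared between genotypes with a two-sided exact permutation test that enumerated every way of dividing the mice, in 6 comparisons. The shift of Grik1 exceeded that of Grik2 by 0.29 ± 0.08 (log2, SE), that of Grik4 by 0.34 ± 0.06 and that of Neto2 by 0.32 ± 0.06. For these 3 genes and for Grik3 the groups did not overlap (exact permutation p = 0.00794, the smallest this design can give, and 0.0119 adjusted over the 6 comparisons, n = 5 per group). The excess was largest against Grik3, at 0.55 ± 0.12. Against Grik5 it was 0.33 ± 0.10 (exact permutation p = 0.0238, adjusted p = 0.0238) and against Neto1 0.29 ± 0.08 (exact permutation p = 0.0159, adjusted p = 0.019), with overlap of the groups in both. All 6 comparisons share the Grik1 values and are not independent. Where the same differences were entered in limma among all transcript clusters, the sizes were the same and 1 of 6 passed, that against Grik4 (adjusted p = 0.0302), while the others had adjusted p from 0.0772 to 0.467.

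**Figure D3:**
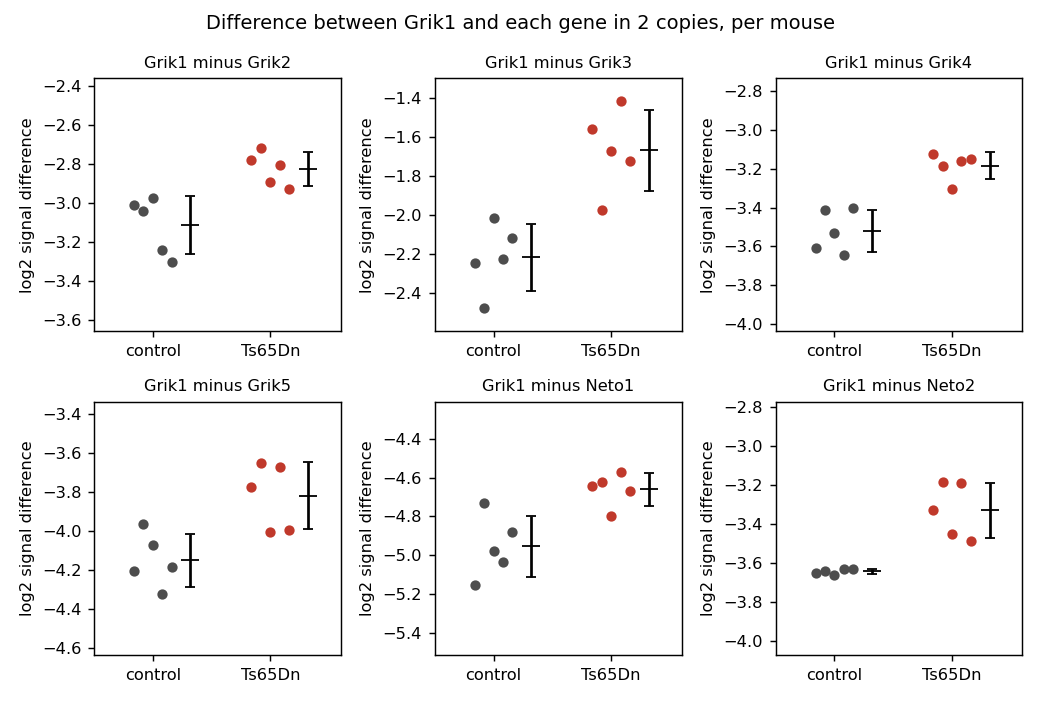
Log2 signal of Grik1 minus that of each gene in 2 copies in the same mouse, for 5 control (grey) and 5 Ts65Dn (red) mice; each point is a mouse, bars show mean and SD, and the level in a panel depends on the probes. Values are higher in Ts65Dn in each panel, by 0.29 to 0.55 on average, with overlap of the groups against Grik5 and Neto1.

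Grik1 was next set beside the other genes of the Mmu16 segment, all in 3 copies. Of 127 measured genes of the segment 42 were called higher, Grik1 among them (33.1%), and for 40.9% of the genes every Ts65Dn mouse was above every control. The log2 difference of Grik1 was above that of 77 other segment genes and below that of 49. Among the genes called it was in the lower part, with 6 below it and 35 above, and their median was 0.42. A further 15 segment genes had a mean signal within 0.5 of that of Grik1, a window chosen after the values were seen. Their median log2 difference was 0.29, 8 were below Grik1 and 7 above. They were a mixed set, from 0.00 (Krtap19-4) to 0.66 (Clic6), and whether each is expressed in the hippocampus was not tested. Only Hlcs of these 15, a biotin ligase gene, passed the threshold, at 0.46 ± 0.07 (SE; adjusted p = 0.0124, limma, n = 5 per group). The SE of Grik1, 0.0389, was smaller than that of each of the 15, which ran from 0.0464 (Krtap19-4) to 0.779 (Clic6).

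Among the 5 nearest measured genes on each side of Grik1, those called higher in Ts65Dn lay on one side. The 5 nearest measured genes on the side of lower coordinates were Usp16, Cct8, Map3k7cl, Bach1 and 2810407A14Rik, of which 2 were called higher. Cct8, which encodes a part of a chaperonin that folds actin and tubulin, was at 0.63 ± 0.08 (log2, SE; adjusted p = 0.00387), and Bach1, a transcription factor of haem and oxidative stress responses, at 0.24 ± 0.04 (adjusted p = 0.0404). Usp16, a deubiquitinase gene, had a difference of 0.44 ± 0.10 with every Ts65Dn mouse above every control, and missed the threshold (adjusted p = 0.215, limma). Map3k7cl was at 0.05 ± 0.04 and 2810407A14Rik, which lies next to Grik1, at 0.03 ± 0.04.

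On the other side the 5 nearest measured genes were the claudin genes Cldn17 and Cldn8, Krtap24-1, 2310079G19Rik and Krtap26-1, starting 610 to 751 kb from the start of Grik1. In limma 0 of these 5 passed, 0 were at an unadjusted p under 0.05 and the rank method called 0. Their log2 differences lay between -0.05 and 0.06. Their mean signals were between 5.06 and 5.80, where the median over all genes was 7.41. The side of Grik1 and the low signal of these genes cannot be told apart. Of the genes in order from Bach1 to Krtap26-1, Grik1 was the last one called higher.

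**Figure D4:**
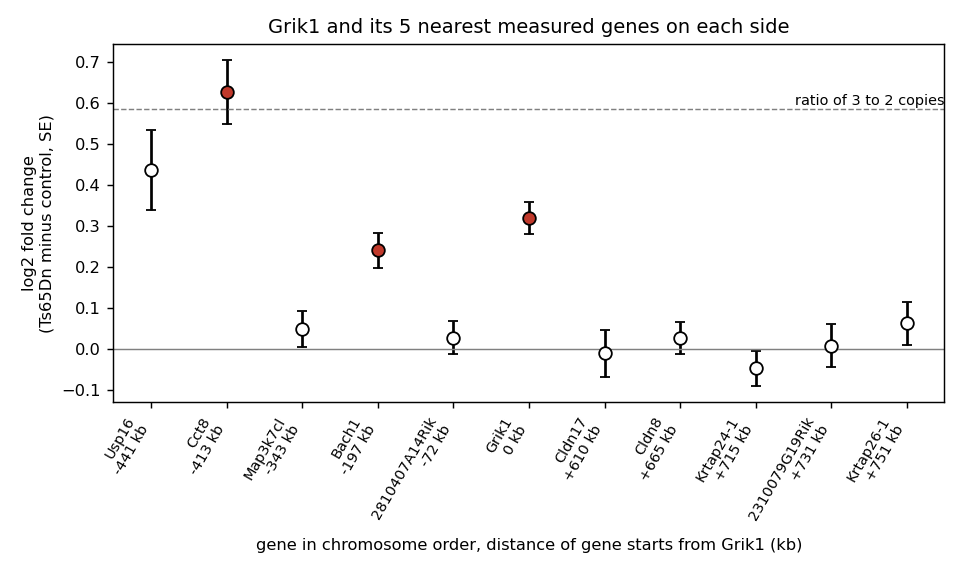
Ts65Dn minus control difference on the log2 scale, with its SE over 5 mice a group, of Grik1 and the 5 nearest measured genes on each side in chromosome order, labelled with the distance of gene starts in kb; red points passed adjusted p 0.05 and the dashed line marks the ratio of 3 to 2 copies. Genes before Grik1 reach 0.63 (Cct8), and the 5 genes after it, with mean signals of 5.06 to 5.80, lie between -0.05 and 0.06.

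Interneurons and CA3 pyramidal cells express kainate receptors, so markers of these cells were read beside the members. The mean of the interneuron list (15 of 17 genes measured, among them Gad1 and Gad2 of GABA synthesis and the GABA transporter gene Slc32a1) lay between 9.77 and 9.98 in Ts65Dn and between 9.73 and 10.02 in controls. With this mean as a covariate in limma, Grik1 was higher by 0.32 (adjusted p = 0.00658, n = 5 per group), as it was without it. The interneuron mean differed by only -0.01 between genotypes, so this covariate could move the Grik1 difference little. Deviations of Grik1 had r = 0.11 with it, and 0.49 without the 2 mice farthest from the median of the list. A part of interneuron content in the Grik1 difference was not tested. The mean of the CA3 list (7 genes) lay between 9.48 and 9.58 in Ts65Dn and between 9.45 and 9.58 in controls. With the choroid plexus mean as a covariate Grik1 was also higher by 0.32 (adjusted p = 0.00641). Over the 10 marker lists 0 of 71 measured genes passed in limma, while at an unadjusted p under 0.05 there were 2, both lower (3.33% of all genes in either direction). By rank 4 were called higher and 7 lower, against 2.9% and 2.66% of all genes. The 2 genes at the unadjusted limit, Wfs1 at -0.35 ± 0.07 (log2, SE; adjusted p = 0.0925, limma) and Man1a at -0.19 ± 0.07, were of the CA1 list and are named after their values were seen. The other measured genes of that list, Fibcd1, Pou3f1 and Mpped1, were at -0.14 ± 0.10, -0.02 ± 0.07 and 0.01 ± 0.09. The mean of the CA1 list lay between 9.82 and 10.12 in Ts65Dn and between 10.05 and 10.26 in controls.

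Among mice of the same genotype, members of the family were compared by their deviations from the genotype mean, in 21 pairs. None passed after adjustment (smallest adjusted p = 0.444, exact permutation of mice within genotype, n = 10), and 0 were at an unadjusted p under 0.05 by Pearson's r, which ran from -0.61 (Grik3 and Neto1) to 0.66 (Grik4 and Neto1). Grik2 and Grik5, whose products assemble into one receptor, had r = 0.61 (exact permutation p = 0.0597, adjusted p = 0.444, n = 10). Their rho was 0.62 (exact permutation p = 0.0438, adjusted p = 0.620, n = 10), and without the 2 mice farthest from the median of Grik2 r was 0.76. The 6 pairs with Grik1 lay between -0.50 and 0.38. Grik5 had a negative relation with the interneuron mean, r = -0.83 (exact permutation p = 0.0084, and 0.293 adjusted over the 70 relations, n = 10) and rho = -0.79 (exact permutation p = 0.0153, adjusted p = 0.355, n = 10). Without the 2 mice farthest from the median of the list r was -0.83. With the CA3 mean Grik5 had r = 0.81 (exact permutation p = 0.0121, adjusted p = 0.293, n = 10) and rho = 0.70 (exact permutation p = 0.0338, adjusted p = 0.355, n = 10), with r = 0.58 without the 2 farthest mice. Grik2 had r = 0.78 with the same mean (exact permutation p = 0.0167, adjusted p = 0.293, n = 10). Its rho was 0.82 (exact permutation p = 0.0177, adjusted p = 0.355, n = 10), with r = 0.87 without the 2 farthest mice. A part of CA3 content in the relation of Grik2 with Grik5 was not tested. None of the 70 relations passed after adjustment, and 5 were at an unadjusted p under 0.05 by r, those of Grik3 with the striatum list, of Grik5 with both lists above, of Grik2 with the CA3 list and of Grik1 with the astrocyte list. For Grik1 with the astrocyte list r was 0.72 (exact permutation p = 0.0379, adjusted p = 0.400, n = 10). Its rho was 0.70 (exact permutation p = 0.0457, adjusted p = 0.355, n = 10), with r = 0.69 without the 2 farthest mice.

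The genes whose deviations from the genotype mean were most like those of Grik1 over the 10 mice were Hnrnpr (Pearson's r = 0.94, rho = 0.88), Bex2 (r = 0.93, rho = 0.85), C130030K03Rik (r = 0.93, rho = 0.93), Mocs2 (r = 0.92, rho = 0.83) and Dynlt3 (r = 0.92, rho = 0.90). Without the 2 mice farthest from the median of Grik1 the r of these 5 genes was between 0.79 and 0.86. They were picked as the highest among 19936 genes, so high values arise by selection alone, and all points share the same arrays. The log2 difference between genotypes of these genes lay between -0.09 and 0.07. C130030K03Rik is the cluster that carries a synonym of Grik2, and its r with the Grik2 cluster was 0.58.

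Partners and relatives of the kainate receptor were counted in 9 lists, in which 65 of 76 genes were measured. In limma 0 passed, while at an unadjusted p under 0.05 the counts were 1 upwards and 4 downwards, against 1.76% and 1.57% of all genes. By rank, 2 were called higher and 4 lower, against 2.9% and 2.66% of all genes. The median log2 difference was -0.01, and over all genes it was -0.00282. Of 11 measured genes of AMPA, NMDA and delta receptors, 10 had negative differences, where 10447 of all 19936 genes did. Their median was -0.04, none passed the threshold and 3 were at an unadjusted p under 0.05. These were the NMDA receptor genes Grin3a at -0.16 ± 0.05, Grin2d at -0.17 ± 0.06 and Grin2c at -0.20 ± 0.08 (log2, SE). The other measured NMDA receptor genes, Grin2a, Grin2b and Grin3b, were at -0.01 ± 0.11, -0.03 ± 0.07 and -0.03 ± 0.04, and Grin1 was not measured. Among 13 auxiliary genes of AMPA receptors, Cacng5 was at -0.34 ± 0.13 and Shisa7 at -0.09 ± 0.07.

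The enzymes that edit the pore codon of Grik1 and Grik2 transcripts belong to the ADAR family. Adarb1, the main editor of these sites and itself a homologue of a gene on human chromosome 21 that Ts65Dn mice have in 2 copies, was at -0.07 ± 0.06 (log2, SE). Adar was at 0.05 ± 0.05. The array does not report editing. Among 12 scaffold genes, Pick1, a PDZ protein that binds kainate receptor subunits, was at 0.08 ± 0.05 and Sdcbp, which encodes syntenin, at 0.07 ± 0.05. Of 6 synaptic organisers, C1ql2 and C1ql3, secreted proteins that gather kainate receptors at mossy fibre synapses, were measured at 0.24 ± 0.13 and -0.13 ± 0.08, and Nrxn3, a presynaptic partner of theirs, at 0.08 ± 0.04. The rank method called C1ql2 higher.

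Modifying enzymes showed small differences. In the ubiquitin and SUMO list (3 of 7 genes measured) Senp1, a SUMO protease, was at -0.11 ± 0.06 (log2, SE) and Cul3, a ubiquitin ligase subunit, at 0.01 ± 0.04. In the list of kinases and calcineurin subunits (7 of 9 measured) Ppp3cb was at 0.04 ± 0.03 and Prkca at 0.06 ± 0.07. Of 3 other partners, Snap25, a SNARE protein, was at 0.02 ± 0.03 and Slc12a5, the neuronal chloride extruder KCC2, at -0.01 ± 0.03. For release and uptake of glutamate (7 of 8 measured) Slc17a8, the vesicular transporter VGLUT3, was at 0.17 ± 0.08 and Slc1a3, an astrocyte transporter, at -0.06 ± 0.05.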

How the data were processed

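Hippocampal RNA of 5 Ts65Dn and 5 control mice was measured on 10 arrays. The table deposited by the authors holds log2 signals from RMA (background correction, equalised distributions between arrays, 1 summary per transcript cluster). RMA, limma and the build mm10 are named, with no versions, in the notes of the submitters. All 10 columns were mapped to a mouse by accession. Of 35556 rows, 23410 with at least 1 symbol in the platform annotation were tested. Rows with 1 symbol (21789) were named through RefSeq (GRCm38), and a gene was represented by its row of highest mean. Of the genes on the lists, 19 had no row of 1 symbol and were not analysed here.

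Ts65Dn and control arrays were set against each other in limma 3.58.1 under R 4.3.3 (lmFit, eBayes), genotype as the only term, two-sided, with Benjamini-Hochberg adjustment over all 23410 rows. Differences between genes were tested by exact permutation over mice, and covariation by exact permutation within genotype (14400 orders). The covariation tests treated same-numbered mice of the 2 genotypes as unlinked, though their deviations had r of up to 0.51. The fit was tested on simulated data. The rank method of the study was written anew (all 25 pairs of arrays, trimmed mean ranks, probability under 0.025 or over 0.975) and may differ from the program used there. The named genes were the 7 members, the 5 nearest measured genes on each side of Grik1, the 2 genes of smallest p in each partner list and the 5 genes most like Grik1. Grin2a, Grin2b, Grin2c, Grin3b, C1ql3, Pou3f1, the segment genes near the Grik1 signal and C130030K03Rik as a Grik2 synonym were named after their values were seen. Members and lists were chosen with earlier results of these data known. The labels call the mice biological replicates, and the number of mice limits the precision.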

Additional observations from a re-analysis of the deposited data

How the results depend on the processing

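Grik1 stayed higher and past the threshold in all 25 alternatives in which it was tested, with log2 differences of 0.30 to 0.34, and with 1 array left out its adjusted p was at most 0.0152. It was dropped, and 0 members were called, where rows under the median signal were left out. The rank method called 2 members (Grik1 higher, Grik3 lower at -0.23), 6 partner genes and 1109 of all genes, against 1, 0 and 56 in limma, and an adjusted p under 0.01 left 33 genes. With 1 array left out, 1 member, 0 partner genes and 39 to 50 of all genes were called. The labels do not say what the replicate numbers mark, and deviations of same-numbered mice had r from 0.03 to 0.51, with the best match at their own number for 4 of 5 numbers. With the number as a replicate block Grik1 was at 0.32 (adjusted p = 0.0423), Grik3 at -0.23 (adjusted p = 0.270) and 58 genes were called. With the replicate block, the excess of Grik1 over Grik2, Grik4, Grik5, Neto1 and Neto2 (0.29, 0.34, 0.33, 0.29 and 0.32) missed the threshold, and that over Grik3 (0.55, adjusted p = 0.0257) passed. Limma on the difference without the block missed it for Grik2 (0.29), Grik3 (0.55), Grik5 (0.33), Neto1 (0.29) and Neto2 (0.32). With 1 array left out the excess was 0.24 to 0.32 over Grik2, 0.48 to 0.63 over Grik3 and 0.31 to 0.37 over Grik4. It was 0.29 to 0.38 over Grik5, 0.24 to 0.35 over Neto1 and 0.28 to 0.36 over Neto2. By the exact permutation test, adjusted over the 6 comparisons, each passed the threshold in 10 of 10 runs. Limma on the difference was not run with an array left out. Genes near 0 changed sign. Neto2 was at -0.00701 after quantile normalization, at -0.00731 with array weights, at -0.000831 after cyclic loess and at -0.00149 with the interneuron covariate. Grik5 was at 0.000868 with the choroid plexus covariate and Neto1 at -0.00824 with the thalamus covariate, which was added after seeing the data. With 1 array left out, Grik2 ran from -0.0156 to 0.0928, Grik4 from -0.0381 to 0.00653, Grik5 from -0.0525 to 0.0303, Neto1 from -0.0238 to 0.0557 and Neto2 from -0.0291 to 0.0405, with none of them called. Each pair was also read without the 2 mice farthest from the median of its first gene, in the order Grik1 to Grik5, Neto1, Neto2. There 1 of 21 pairs of members passed, Grik3 and Grik5, with the mice picked by Grik3 (r = 0.86, exact permutation, adjusted p = 0.0365). With all mice 0 passed, and this pair had the opposite sign (r = -0.41). Picking the mice by the second gene was not tried. The causes of these changes were not tested.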
